A study of Mus musculus with 58 samples.

Results

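Among 4318 wells of the embryonic mouse pancreas that passed the quality limits, 276 wells (6.39%) carried immune cells by their transcripts. A well was kept with at least 2000 transcripts, spike-ins left out, and at least 500 genes. It was counted as immune when at least 4 of 7 leukocyte genes (Ptprc, Tyrobp, Fcer1g, Laptm5, Coro1a, Csf1r and C1qb) had a value of 1 or more, and when Ins1 plus Ins2 and Gcg each made up less than 1% of its transcripts. These 7 genes and 3 hormone genes chose the wells, so their levels are given as a description without a test. The label held against markers outside the rule: macrophage genes such as Mrc1, C1qc, Emr1 (the gene for F4/80) and Cx3cr1 were found in 246, 252, 249 and 252 of the 276 wells.

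Pancreata were dissected from embryos of pregnant females expressing MIP-GFP, a green fluorescent reporter under the mouse insulin promoter, at 5 stages from E12.5 to E18.5, counted in embryonic days. No other genotype, strain or treatment was given, and the genotype of single embryos was not given either. Each experiment was sorted into multiwell plates in parallel as MIP-GFP positive cells and as live cells chosen only by size and a viability dye, and SORT-seq counted transcripts well by well. E12.5 was covered by EP11 and EP18, E13.5 by EP12, E14.5 by EP14, E15.5 by EP10 with EP17, and E18.5 by EP16, so 7 experiments of 1 MIP-GFP and 1 live group each entered the comparisons. Labels did not tie plates to embryos, so every p-value measures the spread between these experiments.

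Some plates went against their labels or stood apart. The MIP-GFP libraries of EP11 and EP18 are titled E15.5 but entered as E12.5, and those of EP16 are titled E14.5 but entered as E18.5. The stage entry was used, so each contrast of stages with these plates rests on 1 of 2 conflicting labels. Another 4 plates, of EP21 and EP22, matched no label and were not used, so the wells counted are those of labelled plates only. The live group of EP16 held 2 plates. On the plate coded P6, 99.0% of the retained wells were past a hormone limit, close to the 97.8% on the MIP-GFP plate of EP16 and far from the 9.35% on the other live plate, coded P4. EP17 gave 2 immune wells in all and entered no sum of expression. Plate totals over retained wells ran from 1222637 to 9490716 transcripts. Immune wells held a median of 14223 transcripts (2055 to 45187) and 4143 genes, no 2 of them had identical values, and none exceeded 5 times the median of its plate.

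Fetal organs are seeded early by macrophages from the yolk sac and later by macrophages from fetal liver monocytes. Macrophages depend on signalling through the CSF1 receptor, clear dying cells with scavenger receptors and lysosomes, and in most tissues produce the complement component C1q. Mast cells, a second resident lineage, store proteases and histamine in granules and carry the receptor tyrosine kinase KIT. In the pancreas, macrophages are known for supporting growth of the epithelium and of endocrine cells.

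Immune wells were frequent on MIP-GFP plates up to E14.5 and rare on them afterwards. On MIP-GFP plates they made up 10.3% of retained wells in EP11 (Wilson 95% interval 7.54 to 14.0), 34.1% in EP18 (27.5 to 41.4), 13.8% in EP12 (10.6 to 17.7) and 14.9% in EP14 (11.5 to 19.1). At E15.5 the MIP-GFP share was 1.12% in EP10 (0.435 to 2.84) and 0.526% in EP17 (0.0930 to 2.92), and at E18.5 it was 0 of 319 wells, which allows a share of up to 0.940%. On live plates the shares were 0.855% in EP11 (0.291 to 2.48), 3.20% in EP18 (1.56 to 6.45), 4.61% in EP12 (2.86 to 7.36), 3.13% in EP14 (1.71 to 5.67), 4.51% in EP10 (2.66 to 7.57), 0.775% in EP17 (0.137 to 4.26) and 4.49% in EP16 (3.08 to 6.50). The 2 sorts of an experiment had intervals that did not overlap in EP11, EP18, EP12, EP14 and EP16, with the MIP-GFP share the higher one in the first 4 and the lower one in EP16. Intervals and limits cover counting error only.

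**Figure D1:**
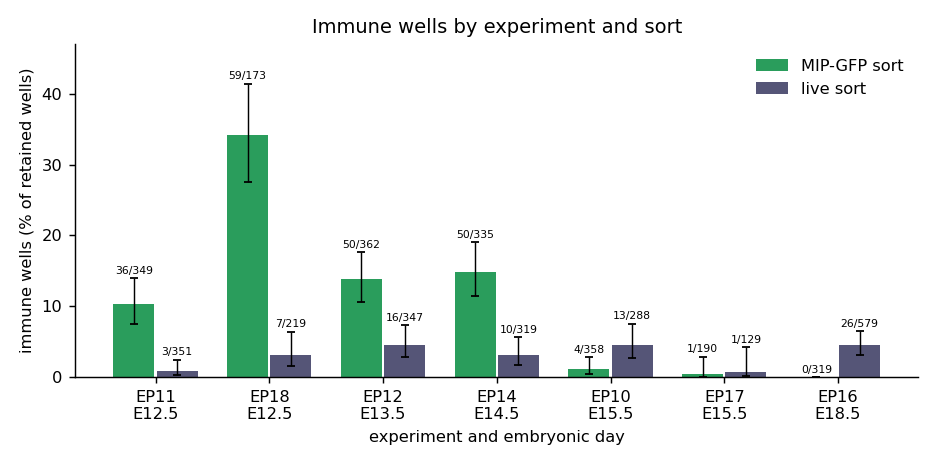
Share of retained wells that were immune (vertical axis, percent) for each experiment and embryonic day, with the MIP-GFP sort in green and the live sort in dark blue-grey. Bars show the share, error bars the Wilson 95% interval, and labels the immune and retained wells; the 4 MIP-GFP groups from E12.5 to E14.5 reach 10.3% to 34.1%, the later 3 stay at or below 1.12%.

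Over all 7 experiments the MIP-GFP share averaged 10.7% ± 12.1 (SD, n = 7) and the live share 3.08% ± 1.67 (SD, n = 7). The difference, 7.60 percentage points ± 12.2 (SD), was positive in 4 of 7 experiments and did not exceed the spread between them (exact two-sided sign-flip test, p = 0.125, adjusted p = 0.375 over the 3 tests on shares). Without the P6 plate of EP16 the difference was 6.91 percentage points (exact p = 0.266). Within the 4 experiments before E15.5 it was 15.3 percentage points ± 10.4 (SD), positive in 4 of 4, where the smallest p the design allows is the 0.125 observed in this exact test. In the 3 experiments from E15.5 on it was -2.71 percentage points ± 2.20 (SD), positive in 0 of 3 (exact p = 0.250). The denominators differ between the sorts, since most wells of several MIP-GFP plates were hormone-rich. Counted only among wells below both hormone limits, 40.9% of 88 wells in EP11, 83.1% of 71 in EP18, 18.2% of 275 in EP12 and 22.4% of 223 in EP14 were immune on MIP-GFP plates, against 0.870% to 4.73% on the live plates of the same experiments. Fluorescence values of single wells were not used here.

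The live share was set against embryonic day over the 7 experiments. No trend beyond the spread was found (Pearson r = 0.352, exact permutation p = 0.426, adjusted p = 0.639; Spearman rho = 0.127, exact permutation p = 0.786, adjusted p = 0.786). Of the experiments farthest from the median day, EP11 and EP18 tie after EP16: r was -0.306 without EP16 and EP11 and 0.178 without EP16 and EP18. Without the P6 plate, which held 0 immune wells among 301, the E18.5 share rose to 9.35% (6.46 to 13.4) and r to 0.711 (exact permutation p = 0.0786). The value depends on whether that plate counts as live.

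The number of rule genes per well, which the rule itself used, is given as a description. Below the hormone limits, 1811 wells had none of the 7 rule genes, 455 had 1, 127 had 2 and 28 had 3, while 11 wells had 4, 33 had 5, 63 had 6 and 169 had all 7. Just outside the threshold, the 28 wells with 3 genes had a median of 123 CPM (transcripts of a gene per 1000000 transcripts) over the macrophage list without rule genes. Just inside it, the 11 wells with 4 genes had a median of 311 CPM, and the wells with 5, 6 and 7 genes had 4176, 13304 and 14547 CPM. The larger step in this level lay between 4 and 5 genes, not at the threshold. The hormone limits kept out 15 wells with 4 or more rule genes, all from MIP-GFP plates, 13 by Gcg and 2 by insulin. The highest immune well held 0.982% Gcg and the lowest one left out by Gcg 1.06%.

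The rule genes were present at every stage. Csf1r, the receptor for CSF1 and IL-34, reached a mean of 1863 CPM ± 794 (SD, n = 6 experiments with at least 5 immune wells) in the summed immune wells, against 9.27 ± 8.84 in all other retained wells. In EP11, EP18, EP12, EP14, EP10 and EP16 it stood at 1991, 2160.1, 2654, 2569, 1105 and 701 CPM, lowest in the 2 latest experiments, and in macrophage-like wells, a class described further on, at 2033, 2186, 2909, 2888, 2339.9 and 1768 CPM. C1qb, a chain of C1q, stood at 2278, 2112, 2409, 2540.4, 1341 and 929 CPM in the same order, and in macrophage-like wells at 2331, 2133, 2639.7, 2855, 2867 and 2418 CPM. The low values of EP10 over all immune wells were not seen in its macrophage-like wells, while Csf1r was lowest in EP16 in both. Csf1r and C1qb are also on the macrophage list that set this class, so their levels in it are a description. Fcer1g and Tyrobp, adaptors that pass on signals from Fc and other activating receptors, averaged 1697 CPM ± 434 and 990 CPM ± 269. The phosphatase CD45, encoded by Ptprc, averaged 307 CPM ± 112, Laptm5, a lysosomal membrane protein of leukocytes, 1158 CPM ± 402, and Coro1a, a leukocyte actin regulator, 209.7 CPM ± 163. Laptm5 was low in EP18 at 389 CPM and between 1139 and 1475 CPM in the other 5 experiments, the reverse of Tyrobp, which was highest in EP18 at 1498 CPM.

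Outside the rule, the 25 genes with the highest ratio of mean level in immune wells over all other wells were led by macrophage genes. They are described here without a test, since the comparison is the one that chose the wells. Fcrls, a scavenger-like Fc receptor family member, led with 709 against 1.04 CPM averaged over wells (log2 ratio 8.45, with 1 CPM added to both) and was found in 83.3% of immune wells. Emr1 followed with 791 against 1.60 CPM and Ctss, a lysosomal protease that prepares peptides for MHC class II, with 1513 against 4.43 CPM. The list went on with the anaphylatoxin receptor gene C3ar1, the Fc receptor gene Fcgr3, C1qc, Ly86, the chemokine gene Ccl2, the pore-forming Mpeg1, the mannose receptor gene Mrc1, Ms4a7 and the scavenger receptor gene Stab1. It closed with Nckap1l, Cybb (an oxidase subunit), Cx3cr1, Ms4a6b, F13a1, Pf4, Trem2, Fcgr1, Pld4, Ms4a6d, Slco2b1, Ccr1 and Aif1. Of these genes Fcgr3 was the most widely found, in 97.5% of immune wells, and Ccl2 and Ccr1 the least, each in 62.3%.

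The immune wells held more than 1 cell class. Wells were assigned to the list (macrophage, mast cell or granulocyte markers) with the highest summed level, if that reached 5000 CPM, a limit set after the values were seen. This gave 243 macrophage-like, 12 mast cell-like and 5 granulocyte-like wells and left 16 without a class. In 13 of 276 wells the highest sum lay near the limit, between 2500 and 10000 CPM. Macrophage-like wells carried a median of 20713 CPM over their list (5022 to 50686), and the mast cell-like wells a median of 83089.9 CPM over theirs (5576 to 159288), against at most 2388 CPM in any other immune well. The classes were unevenly placed: 193 of 200 immune wells on MIP-GFP plates and 50 of 76 on live plates were macrophage-like, and all 12 mast cell-like wells were on live plates.

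**Figure D2:**
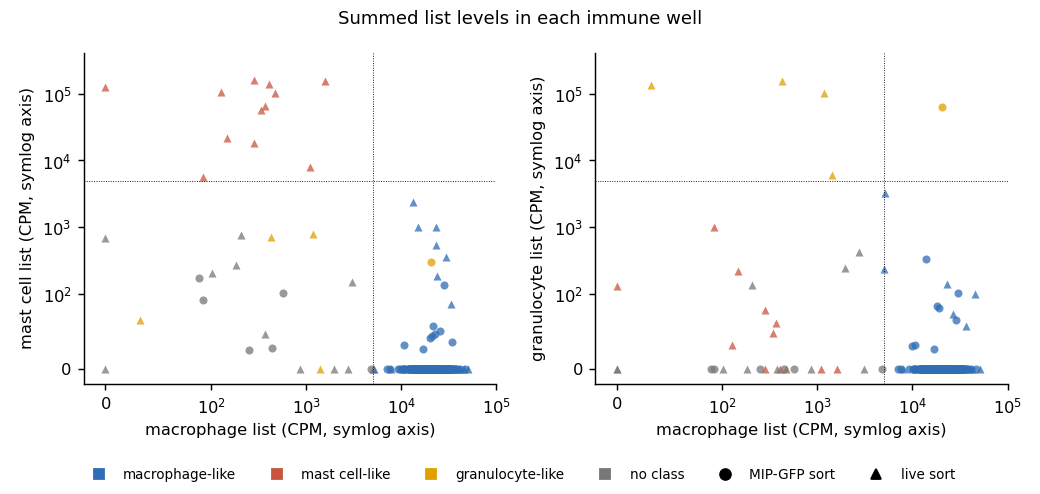
Each point is 1 immune well, by its summed macrophage list (horizontal axis, CPM) and its summed mast cell or granulocyte list (vertical axis, CPM), both on axes linear to 100 CPM and logarithmic above. Dotted lines mark the limit of 5000 CPM; colours give the class and shapes the sort, and all 12 mast cell-like wells are triangles, from live plates.

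The promoters of genes that tell the macrophage-like from the mast cell-like wells are shown to give their sequence context, taken from RefSeq on GRCm38.p6, the patched form of the mm10 assembly that the files use. Each runs from 250 bases before to 50 bases after the transcription start, 5′ to 3′ on the strand of the gene. For the macrophage genes, capitals mark GAGGAA or its reverse complement TTCCTC, the core that the myeloid factor PU.1 is known to bind. C1qb lies at chr4:136886151-136886450, C1qc at chr4:136892865-136893164 (both minus strand, neighbours on chromosome 4) and Mrc1 at chr2:14229164-14229463 (plus strand).
C1qb: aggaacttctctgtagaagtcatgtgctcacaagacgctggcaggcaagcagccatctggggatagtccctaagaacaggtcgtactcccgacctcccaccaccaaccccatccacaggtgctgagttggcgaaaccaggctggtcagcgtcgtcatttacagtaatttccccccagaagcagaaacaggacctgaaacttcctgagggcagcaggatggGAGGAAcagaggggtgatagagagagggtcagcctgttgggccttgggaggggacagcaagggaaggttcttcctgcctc
C1qc: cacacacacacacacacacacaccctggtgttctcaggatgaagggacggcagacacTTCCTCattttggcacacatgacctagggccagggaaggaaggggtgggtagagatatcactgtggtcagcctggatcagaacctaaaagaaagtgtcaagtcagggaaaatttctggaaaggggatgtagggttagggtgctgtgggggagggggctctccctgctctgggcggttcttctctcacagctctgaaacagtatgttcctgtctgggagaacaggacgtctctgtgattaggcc
Mrc1: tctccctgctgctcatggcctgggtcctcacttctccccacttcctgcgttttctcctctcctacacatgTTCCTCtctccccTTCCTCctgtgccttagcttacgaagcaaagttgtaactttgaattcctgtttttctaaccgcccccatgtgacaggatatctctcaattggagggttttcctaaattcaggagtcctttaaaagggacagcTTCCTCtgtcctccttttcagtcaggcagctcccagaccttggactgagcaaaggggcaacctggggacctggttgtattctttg
For the mast cell genes, capitals mark GATAA or its reverse complement TTATC, letters within the motif bound by GATA factors. Cpa3 lies at chr3:20242132-20242431, Cma1 at chr14:55944626-55944925 and Mcpt4 at chr14:56062261-56062560, all on the minus strand.
Cpa3: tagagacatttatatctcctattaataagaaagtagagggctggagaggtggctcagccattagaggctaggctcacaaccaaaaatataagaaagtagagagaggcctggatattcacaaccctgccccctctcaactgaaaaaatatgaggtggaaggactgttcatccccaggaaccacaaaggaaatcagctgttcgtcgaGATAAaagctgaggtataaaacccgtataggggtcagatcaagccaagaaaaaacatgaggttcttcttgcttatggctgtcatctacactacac
Cma1: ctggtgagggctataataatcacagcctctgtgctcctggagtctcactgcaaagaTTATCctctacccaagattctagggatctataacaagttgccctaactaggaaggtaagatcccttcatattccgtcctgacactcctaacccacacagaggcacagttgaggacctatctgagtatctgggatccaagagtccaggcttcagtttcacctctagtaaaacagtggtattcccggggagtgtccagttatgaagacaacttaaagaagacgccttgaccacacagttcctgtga
Mcpt4: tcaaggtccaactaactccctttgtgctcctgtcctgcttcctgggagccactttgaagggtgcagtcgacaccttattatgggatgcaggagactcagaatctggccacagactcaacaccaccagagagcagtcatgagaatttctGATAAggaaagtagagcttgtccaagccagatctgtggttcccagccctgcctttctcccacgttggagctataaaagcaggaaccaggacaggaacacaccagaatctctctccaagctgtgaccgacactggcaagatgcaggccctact
GAGGAA was found once in the C1qb and C1qc windows, 3 times in the Mrc1 window and in none of the mast cell gene windows, and 28.3% of 32851 promoters of this length hold it. GATAA was found once in each mast cell gene window and in none of the macrophage gene windows, and 25.4% of promoters hold it. A match describes letters only and is not a measured binding site.

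Complement genes were widely found. Of 12 complement genes, 8 were found in at least 138 of the 276 immune wells. C1qc stood at a lowest, median and highest level of 1100.4, 2624 and 2918 CPM over the 6 experiments, and C1qa, which lies beside C1qc and C1qb on chromosome 4, at 157, 258 and 379 CPM. C3ar1, the receptor for C3a, averaged 535 CPM ± 183. C3, the central component itself, was found in 27 wells only, with 21.4 CPM ± 21.2 against 11.1 CPM in all other wells.

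Among receptors for clearance, 17 genes were examined and 10 were found in at least 138 wells. Mrc1 stood at 2992, 3478, 3999.8, 3739, 1905 and 1379 CPM in EP11, EP18, EP12, EP14, EP10 and EP16. Stab1, which takes up modified lipoproteins and dying cells, averaged 1151 CPM ± 569, and Axl, a receptor for the bridging molecule GAS6, 166 CPM ± 68.1. Lyve1, the hyaluronan receptor that marks vessel-associated macrophages, was found in 56.9% of immune wells. Timd4, a phosphatidylserine receptor of long-lived resident macrophages, was found in 33.3% at 33.8 CPM ± 18.1, and Mertk in 15.2% at 10.2 CPM ± 10.9. Among inhibitory and activating receptors, Sirpa averaged 798 CPM ± 203 and Fcgr3 838 CPM ± 101, the smaller relative spread of that pair.

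All 21 lysosomal genes were found in at least 138 of 276 immune wells, and their summed level averaged 18290.4 CPM ± 5470.2 against 2006 CPM ± 158 in all other wells. Ctsb, a cysteine protease, averaged 4335 CPM ± 2247, Lamp1, a lysosomal membrane glycoprotein, 1774 CPM ± 727 and Grn, the gene of progranulin, 1517 CPM ± 526. Lipid genes were led by Apoe, the lipid carrier apolipoprotein E, with 7019.9 CPM ± 2078 against 95.2 CPM ± 33.2 elsewhere. The iron list was led by the ferritin genes Ftl1 and Fth1, with 6411 CPM ± 1926 and 3170.5 CPM ± 1216. Hmox1, which breaks down heme, differed widely between experiments: it stood at 506, 289, 1845, 1326, 168 and 115 CPM in EP11, EP18, EP12, EP14, EP10 and EP16, highest at E13.5 and E14.5.

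Of 14 chemokine genes in the table, 6 were found in at least 138 wells. Pf4, a CXC chemokine of platelets and some macrophages, averaged 1814 CPM ± 705, Ccl3 931 CPM ± 505 and Ccl2, which attracts CCR2-positive monocytes, 484 CPM ± 201. The receptor CX3CR1 was transcribed in 91.3% of immune wells (827 CPM ± 274), and Ccr1 in 62.3% (233 CPM ± 91.2). Ccr2 was found in 24 wells, at 724 CPM in EP10 and 155 CPM in EP16 against 1.21 to 16.6 CPM in the other 4 experiments. Among growth factors, Gas6 averaged 631 CPM ± 321 and was found in 80.8% of wells, and Igf1, insulin-like growth factor 1, averaged 347 CPM ± 118 against 136 CPM ± 70.6 in all other wells and was found in 82.2%. Il1b and Tnf, inflammatory cytokine genes, were found in 26.1% and 31.9%, while Vegfa was lower in immune wells (26.8 CPM ± 27.6) than in all others (256 CPM ± 137). Of 23 genes in this list, 3 were found in no immune well.

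Transcription factors included Maf with 1089.6 CPM ± 386, Sfpi1 (the gene of PU.1) with 132 CPM ± 44.7, Irf8 with 187 CPM ± 54.0 and Cebpb with 202 CPM ± 58.8. MHC class I was common and MHC class II rare. B2m was found in 99.6% and H2-D1 in 96.0% of immune wells, but H2-Ab1 in 14 wells and H2-Aa in 4. H2-Aa was listed at 0 in EP11, EP18, EP12 and EP14, and stood at 241 CPM in EP10 and 101 CPM in EP16.

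Proliferation genes were present in the macrophage-like wells. Mki67 was found in 43.1% and Top2a in 43.8% of immune wells. After each well was thinned to 2000 transcripts, macrophage-like wells held a median of 5.50, 7.0, 4.00, 3.00, 3.00 and 3.00 transcripts of 25 cell cycle genes in EP11, EP18, EP12, EP14, EP10 and EP16. The other retained wells of the same experiments held 2.00, 4.00, 1.00, 1.00, 1.00 and 1.00. The macrophage-like median was the higher one in all 6 experiments, and the 8 mast cell-like wells of EP16 had a median of 1.00. In macrophage-like wells 0 of 25 genes of the list passed the test for change with embryonic day described further on, where 0.461% of all genes did (median log2 change per day -0.15 against -0.01 over all genes).

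Genes of the immediate early response, which tissue dispersal is known to raise, were high as well. Fos averaged 2227 CPM ± 596 in immune wells against 973 CPM ± 707 in all others, and 15 of 20 genes of this list were found in at least 138 immune wells. All plates passed through the same dispersal, and its part in these levels was not tested.

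Mast cell-like wells expressed granule proteases at very high levels. Cpa3, Cma1, Tpsb2, Hdc, Kit and Gata2 are on the list that set the class, so their levels are a description without a test. The mast cell-like wells numbered 1 in EP12, 3 in EP10 and 8 in EP16, all live wells. No list of basophil genes was used, so basophils were not told apart from mast cells in this class. Pooled over the 12 wells, Cpa3, carboxypeptidase A3, stood at 18353 CPM against 0.782 CPM in macrophage-like wells, Cma1, the chymase of connective tissue mast cells, at 14881 against 2.35 CPM, and Tpsb2, a tryptase, at 13835 against 1.83 CPM. Hdc, which makes histamine, reached 6608 CPM and was found in 12 of 12 wells, as were Kit, Gata2, Il1rl1 (the receptor for IL-33) and Ifitm1. The macrophage list summed to 0 to 1594 CPM in these wells. The lowest macrophage-like well held 5022 CPM, a floor that the class limit of 5000 CPM sets. C1qb, C1qc, Mrc1, Fcrls and Trem2 had no transcript in them, and Csf1r stood at 4.83 CPM. Cma1 was found in 10 and Tpsb2, Mcpt4 and Prss34 in 8 of the 12 wells.

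The 5 granulocyte-like wells came from EP10, EP11, EP12 and EP14 (1 live well each) and from EP17 (1 MIP-GFP well). S100a9 and S100a8, the subunits of calprotectin, stood at 25597 and 23662 CPM in the pooled wells, against 0.782 and 5.38 CPM in macrophage-like wells. Ngp, Camp, Ltf and Lcn2, genes of neutrophil granules, were found in 4 of 5. All 6 genes are on the list that set the class, so these levels too are a description. The EP17 well also carried 20544 CPM over the macrophage list, so its class rests on which list was larger.

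Of the 16 wells without a class, 10 were from live plates and 6 from MIP-GFP plates. An EP10 live well detected 11 of 14 lymphocyte genes (3668 CPM), and another EP10 live well and an EP16 live well detected 6 each (1616 and 2407 CPM). A live well of EP16 carried 12138 CPM over the dendritic cell list, which is led by MHC class II genes, and 14895 CPM over the monocyte list. A live well of EP10 carried 6638 CPM over the dendritic cell list and 2421 CPM over the monocyte list. A further EP10 live well and the EP17 live well detected 7 of 10 monocyte genes each (5559.6 and 6019.5 CPM). Of the MIP-GFP wells, 2 held 21826 and 19085 CPM over the endocrine list with 92.4 and 251 CPM over the macrophage list, so in them the rule genes stood beside endocrine transcripts. No immune well held a transcript of Cd3e, Cd79a or Clec9a, markers of T cells, B cells and type 1 dendritic cells. Cd79b, which is also on the lymphocyte list, was found in 155 immune wells at 69.9 CPM ± 23.5.

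Immune wells from the 2 sorts were compared as sums per experiment and sort, 4 from MIP-GFP and 5 from live plates, with embryonic day as a covariate (edgeR's quasi-likelihood test, Benjamini-Hochberg adjustment over 6075 genes). In the MIP-GFP sums 4 of 7 endocrine genes were higher, 6 of 8 granulocyte genes and 1 of 6 mast cell genes were lower, and no macrophage gene passed. Granulocyte-like wells entered only the live sums of EP12, EP14 and EP10, 1 in each, so the granulocyte count is a description. In all, 31 genes (0.510%) had an adjusted p below 0.05, 12 higher (0.198%) and 19 lower (0.313%) on MIP-GFP plates. The sums of an experiment deviated together, and with the experiment as a replicate block 88 of 7469 genes (1.18%) passed. Without EP12 or without EP14 the count was 0 (198 and 339 genes at an unadjusted p under 0.05 in edgeR), and without EP18 it was 24. In these 3 fits the log2 difference of Slc38a5 was 4.05, 4.27 and 3.97, with adjusted p of 0.217, 0.0781 and 0.00103 by edgeR.

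The endocrine list gave 4 higher genes of 7 tested, none lower, with a median log2 difference of 4.67 against 0.00 over all genes. Slc38a5, an amino acid transporter of alpha cells, stood at 256, 149.8, 273 and 257 CPM in the MIP-GFP sums of EP11, EP18, EP12 and EP14. In the live sums of EP18, EP12, EP14, EP10 and EP16 it stood at 0, 13.3, 19.8, 16.4 and 4.38 CPM. The groups did not overlap (log2 difference 4.13 ± 0.44 SE, adjusted p = 0.00396 by edgeR's quasi-likelihood test). With unclassed wells left out, Slc38a5 stood at 125 CPM in the MIP-GFP sum of EP12 and 146 CPM in that of EP14. Those of EP11 and EP18 held no unclassed well. Isl1, an islet transcription factor, averaged 59.1 CPM ± 57.2 (SD, n = 4) against 3.51 CPM ± 5.72 (SD, n = 5), adjusted p = 0.00419 in the edgeR test. Leaving out unclassed wells took Isl1 from 42.6 to 21.7 CPM in the MIP-GFP sum of EP12 and from 144 to 51.3 CPM in that of EP14. Ttr, transthyretin, averaged 176 CPM ± 39.2 against 34.6 CPM ± 17.5, with a log2 difference of 2.36. Iapp, the islet amyloid peptide, averaged 114 CPM ± 128 against 19.7 CPM ± 29.5, and its groups overlapped: it was 7.69 CPM in the MIP-GFP sum of EP11 and 70.4 CPM in the live sum of EP16. Ptprn2, Pax6 and Aplp1 were also higher, with means of 54.2, 39.1 and 92.9 CPM on MIP-GFP plates against 1.75, 3.51 and 14.1 CPM on live plates.

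These endocrine transcripts were also higher in the other wells of MIP-GFP plates. In the other retained wells of the MIP-GFP plates of EP11, EP18, EP12 and EP14, Slc38a5 stood at 14409.7, 8731, 6219 and 3773 CPM, and in those of the live plates at 339, 153, 624 and 458 CPM. Gcg, whose level the rule limits, averaged 1447 CPM ± 659 in the immune wells of MIP-GFP plates and 121 CPM ± 118 in those of live plates. In wells of the live plates with mesenchymal genes, Slc38a5 stood at 13 CPM in EP18, 24.5 in EP12, 31.7 in EP14, 7.72 in EP10 and 11 in EP16, where the immune wells of the live plates held 0, 13.3, 19.8, 16.4 and 4.38 CPM, lower in each but EP10. Macrophage-like wells alone gave 3 genes past the test (0.0601% of 4988): Iapp, Slc38a5 and Aplp1. With the experiment as a replicate block, 13 genes of the macrophage-like wells passed (0.215%). The part that transcripts of other cells have in these levels was not tested.

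**Figure D3:**
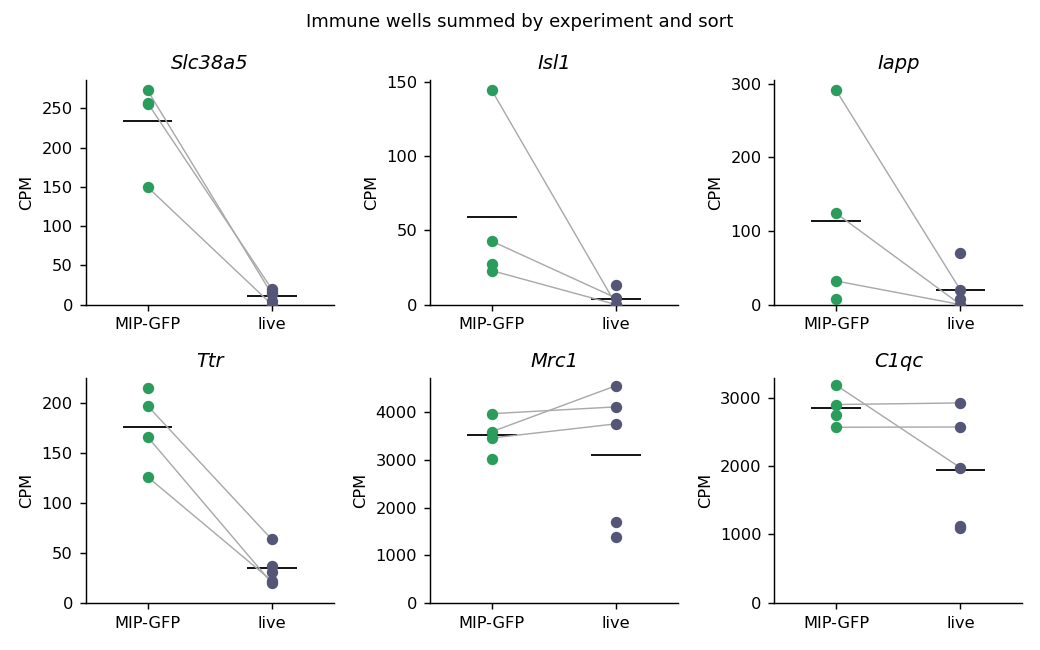
Levels (CPM) of endocrine genes Slc38a5, Isl1, Iapp and Ttr and macrophage genes Mrc1 and C1qc in the immune wells summed by experiment and sort. Each point is 1 sum, horizontal bars are group means, and grey lines join the sorts of EP18, EP12 and EP14; the endocrine genes are higher on MIP-GFP plates in all 3 pairs, Mrc1 and C1qc overlap.

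Of the genes lower on MIP-GFP plates, 6 were on the granulocyte list and 1, Hdc, on the mast cell list. S100a8 had no transcript in the 4 MIP-GFP sums and stood at 0, 5107, 1090.4, 581 and 0 CPM in the live sums of EP18, EP12, EP14, EP10 and EP16. With a limit of 3 transcripts over the MIP-GFP group, it was at least 1524-fold lower there than the live mean of 1356 CPM. That bound covers counting error only, not the small number of cells. S100a8 and Lcn2, with no transcript in the MIP-GFP sums, entered the test through the live sums only, so a call could only be lower. The live sums of EP12, EP14 and EP10 each held 1 granulocyte-like well. The MIP-GFP well of this class, from EP17, held 63354 CPM over the granulocyte list. Hp and Plac8, from the monocyte list, averaged 87.3 and 144 CPM on live plates and 0 and 1.05 CPM on MIP-GFP plates, and the cytokine gene Osm 68.4 against 2.89 CPM. Live plates held 12 mast cell-like and 4 granulocyte-like wells, MIP-GFP plates 0 and 1, and the granulocyte-like wells of EP11 and EP17 entered no sum. Of 17 macrophage genes tested, none passed, with a median log2 difference of 0.05 against 0.00 over all genes, nor did any of 10 complement, 20 lysosomal and 12 clearance receptor genes (medians -0.19, 0.19 and 0.07). Mrc1 averaged 3511 CPM ± 388 on MIP-GFP and 3099 CPM ± 1459 on live plates, C1qc 2849 CPM ± 259.5 and 1938 CPM ± 827. In simulated data this comparison recovered 22.7% of log2 differences of 1, so a gene that did not pass is not shown to be equal.

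Change with stage was tested on sums per experiment over both sorts (6 experiments, edgeR's quasi-likelihood test with embryonic day as a number). Of 8936 genes, 161 (1.80%) passed, 133 rising (1.49%) and 28 falling (0.313%). The rise was led by mast cell genes. Of 8 mast cell genes tested, 5 rose and none fell: Cma1, Hdc, Fcer1a, Kit and Srgn, with a list median of 1.54 log2 per day against 0.00 over all genes. Cma1 was listed at 0 in EP11, EP18 and EP14, at 2.90 CPM in EP12, 28.3 in EP10 and 13495 in EP16 (2.93 ± 0.18 SE log2 per day, adjusted p = 0.000279 by edgeR). Hdc stood at 5331 CPM in EP16 and 503 in EP10, and at 14.8 CPM or less earlier. Prss34, a mast cell protease gene, and Slc18a2, which loads amines into granules, rose with slopes of 2.02 and 1.62 log2 per day. Mast cell-like wells made up 8 of 26 immune wells in EP16, 3 of 17 in EP10, 1 of 66 in EP12 and none in EP11, EP18 and EP14. Of live immune wells alone they were 8 of 26 in EP16, 3 of 13 in EP10 and 1 of 16 in EP12. EP11, EP18 and EP14 had only 3, 7 and 10 live immune wells. The level per mast cell-like well differed too: the mast cell list summed to 5576 to 21380 CPM in the 3 wells of EP10, 18327 CPM in that of EP12 and 57241 to 159288 CPM in the 8 wells of EP16. The EP16 sum held live wells only and the sums before E15.5 mostly MIP-GFP wells, so stage and sort cannot be told apart here. With live wells only, 0 of 5191 genes passed the edgeR test.

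Several lipid genes and a protease fell. Of 10 lipid genes tested, 3 fell and none rose: Plin2, which coats lipid droplets (-0.48 ± 0.09 SE), Lpl, lipoprotein lipase (-0.47 ± 0.07) and Abca1, the cholesterol exporter (-0.46 ± 0.07 log2 per day). Abca1 stood at 1657, 1783, 1548, 1315, 601 and 261 CPM in EP11, EP18, EP12, EP14, EP10 and EP16, higher in each experiment before E15.5 than in either later one. Ctsb fell by 0.41 log2 per day and the fatty acid receptor gene Cd36 by 0.51. Rtn1 and the mitotic genes Knstrn and Cep55 fell too, by 0.69, 0.53 and 0.44. In macrophage-like wells alone Abca1, Lpl, Plin2, Cd36 and Ctsb had smaller slopes (-0.25, -0.25, -0.33, -0.25 and -0.20) and none passed, with adjusted p of 0.141, 0.264, 0.168, 0.286 and 0.186 by edgeR.

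The macrophage-like wells alone gave 39 genes past the test among 8459 (0.461%), 36 rising (0.426%) and 3 falling (0.0355%). The sum of E18.5 was live wells only, and those before E15.5 were mostly MIP-GFP wells, so stage and sort are mixed in these sums. Genes of the interferon response gave 4 rising of 10 tested (Bst2, Ifitm3, Oasl2 and Stat2), with a median of 0.48 log2 per day against -0.01 over all genes. The antigen presentation list gave 2 rising of 8, the class I genes H2-K1 and H2-D1. Ifitm3, which blocks entry of viruses, stood at 44.9, 25.9, 55.3, 94.1, 68.7 and 961 CPM in the macrophage-like sums of EP11, EP18, EP12, EP14, EP10 and EP16. H2-K1 stood at 278, 229.8, 287, 389, 580.3 and 1502 CPM in the same order (0.43 ± 0.05 SE log2 per day, adjusted p = 0.00270 by edgeR).

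Few receptor genes passed in these wells: 2 of 12 Fc receptor and adaptor genes (Fcgr2b and Lilrb3), 1 of 15 clearance receptors (Cd163) and 0 of 7 chemokine receptors rose, with list medians of 0.01, 0.08 and 0.24 log2 per day against -0.01 over all genes. Fcgr2b, the inhibitory Fc receptor, stood at 13.7, 20.1, 51.1, 66.7, 123 and 801 CPM, with every later stage above the earlier ones (0.88 ± 0.06 SE log2 per day, adjusted p = 0.000135 by edgeR). Cd163, the receptor that takes up haptoglobin-bound hemoglobin, stood at 1.24, 11.5, 13.9, 63.8, 7.57 and 902 CPM, high in EP16 alone (1.13 ± 0.12, adjusted p = 0.00182 by edgeR). Cd163 and C1qa are on the macrophage list that set the class, so their calls come from values that helped to choose these wells. C1qa rose by 0.45 and the chemokine gene Ccl7 by 0.66 log2 per day, and the gelatinase gene Mmp9 fell by 1.19. Among macrophage-like wells of live plates only, Fcgr2b (0, 50.2, 87.8, 159 and 801 CPM in EP18, EP12, EP14, EP10 and EP16, adjusted p = 0.00902) and Ifitm3 (adjusted p = 0.0244) passed the edgeR test, 2 of 2145 genes (0.0932%). Without EP16, 7 of 8449 genes passed (0.0829%), and Fcgr2b, Cd163, Ifitm3 and H2-K1 had adjusted p of 0.102, 0.410, 0.344 and 0.260, with slopes of 0.92, 1.07, 0.50 and 0.39.

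Genes of other cell types rose in the same fit. The 4 mesenchymal genes tested, Dcn, Col3a1, Col1a1 and Col1a2, all rose, as did the hormone gene Sst. Col3a1 stood at 137 CPM in EP10 and 332 CPM in EP16 and at most 20.5 CPM earlier, against 9923 CPM in mesenchymal wells of the live plates of EP16. Cd163, Fcgr2b and Cbr2 stood at 0.835, 0.139 and 0.0696 CPM in all other retained wells of EP16, near 0. For Ifitm3 and H2-K1 the other wells of EP16 held 76.4 and 297 CPM, below the 961 and 1502 CPM of the macrophage-like wells.

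Lyve1 and F13a1 were lowest at E12.5. In macrophage-like wells Lyve1 stood at 207, 464, 1811, 2272, 2203 and 2239.5 CPM and F13a1, the transglutaminase subunit of factor XIII, at 362, 667, 1580.3, 2232, 1691 and 3118 CPM in EP11, EP18, EP12, EP14, EP10 and EP16. Both E12.5 experiments were below all 4 later ones for each gene. The share of all genes with this order is not given here, so the order is a description. A slope per day did not describe this order beyond the spread (0.40 log2 per day, adjusted p = 0.371 for Lyve1, and 0.38, adjusted p = 0.185 for F13a1, by edgeR). Folr2, the folate receptor that often accompanies them, stood at 86.7, 82.2, 265, 425, 294 and 357 CPM with the same order of E12.5 below the rest. Mrc1 lay between 3062 and 4384 CPM in these sums at all stages, but it is on the macrophage list that set the class. Lyve1, F13a1 and Folr2 were named after their values were seen. Of the E12.5 macrophage-like wells, 36 of 38 in EP11 and 59 of 65 in EP18 came from MIP-GFP plates titled E15.5. The E18.5 sum held live wells only, so stage and sort cannot be told apart here.

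**Figure D4:**
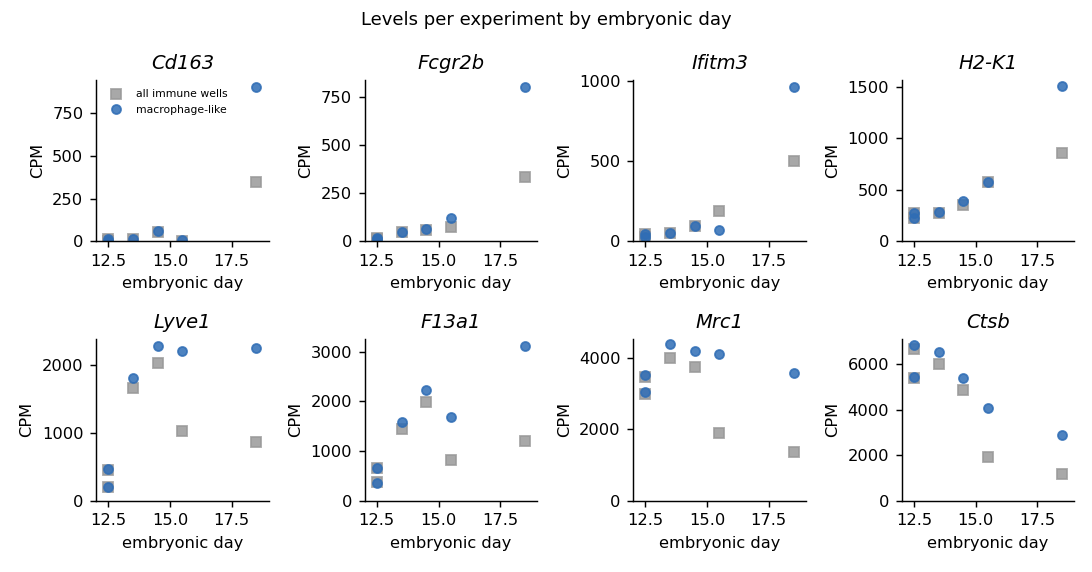
Levels (CPM, vertical axes) by embryonic day (horizontal axes) for 8 genes in the sums per experiment, over all immune wells (grey squares) and macrophage-like wells (blue circles), 6 experiments each. Cd163, Fcgr2b, Ifitm3 and H2-K1 are highest at E18.5, Lyve1 and F13a1 are lowest at E12.5, and Mrc1 in macrophage-like wells lies between 3062 and 4384 CPM.

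The contrast of E15.5 with E12.5 depends on the stage entry of the MIP-GFP plates of EP11 and EP18, which are titled E15.5. Only 1 experiment with enough immune wells (EP10, 17 wells) stood for E15.5 against 2 for E12.5 (EP11 and EP18), and the fit over all 6 sums had 1 residual degree of freedom, so its spread comes almost wholly from that shared across genes. It gave 401 of 9951 genes (4.03%), 352 higher (3.54%) and 49 lower (0.492%), where DESeq2 gave 85. Of the lists, 10 of 13 granulocyte, 10 of 10 mast cell, 8 of 10 monocyte and 6 of 14 lymphocyte genes were tested. Their median log2 differences were 7.70, 7.01, 3.42 and 8.38, against -0.05 over all genes. Mesenchymal, acinar and erythroid genes had medians of 3.27, 5.61 and 5.38, and their part in the result was not tested. Genes with no transcript at E12.5 entered the fit through other sums only. The filter thus bears on the size and sign of these medians, which are a description. The granulocyte list reached 102080 CPM in 1 EP10 well and at most 1027 CPM in the other immune wells of EP10. EP10 held 3 mast cell-like, 1 granulocyte-like and 4 unclassed wells among its 17. The largest log2 difference of a gene past the test was 12.63, for the protease gene Mcpt8. Cpa3 had no transcript at E12.5 and stood at 1008 CPM in EP10. By a limit of 3 transcripts over the E12.5 group, it was at least 514-fold higher. Il7r and H2-Aa were at least 27.0-fold and 123-fold higher, and these bounds cover counting error only. Aif1, Slc40a1 (the iron exporter) and Fabp5 were lower. In macrophage-like wells alone 10 of 9255 genes passed (0.108%), all higher, among them the monocyte receptor gene Ccr2 at 284 CPM against 1.24 and 4.31 CPM in the E12.5 sums. The pancreatic acinar gene Ctrb1, at 484 CPM against no transcript, and the globin gene Beta-s were among these 10 as well, and their source was not tested.

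The authors' smaller table, made from the same wells, left nearly all immune wells out. Of 2097 retained wells that it lists, 3 were immune by the rule, and none of the 243 macrophage-like or 12 mast cell-like wells was among them: 1 was granulocyte-like and 2 had no class.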

How the data were processed

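SORT-seq transcript levels were analysed in 5760 wells on 15 plates from 7 experiments, which 54 of the 58 labelled libraries name. The other 4, of E12.5 and E15.5 in both sorts, carry no experiment number and were tied to no wells. The deposited table of all wells holds expected counts, estimated transcript numbers that need not be whole, in 19788 rows of which 89 are spike-ins. Per the submitters' processing notes BWA, Seurat and the mm10 genome were used; other steps are not given in the sources used here. 1536 columns, 4 plates of EP21 and EP22, matched no label and were not used, although the immune rule covers plates so named. The other deposited table, of fewer wells, served only to count which wells it lists.

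Wells, the rule and the class limit are as the report states. Doublets were not called; 8 retained wells above 5 times their plate median were left out as an alternative. Counts of immune wells were rounded, summed per experiment, or per experiment and sort, where at least 5 wells were present, and tested with edgeR 4.0.16 (R 4.3.3) after its expression filter and TMM scaling. DESeq2 1.42.0 was the alternative. The 7 rule genes and the hormone genes were kept out of the tests. CPM values in the text are unscaled sums per 1000000 transcripts. Standard errors are the log2 change over the root of the F statistic. Shares were tested with exact permutation tests in Python 3.11.15. The experiment numbers in the titles paired the sorts: deviations of the same experiment correlated at 0.222, 0.171 and 0.233 in EP12, EP14 and EP18. The edgeR comparisons, not the tests on shares, were tested on simulated data. Simulated log2 differences of 1 were recovered in 22.7% of genes between sorts and in 1% for E15.5 against E12.5. At a log2 difference of 2 these were 97% and 52.5%. Simulated slopes of 0.5 log2 per day were recovered in 93.5%.

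Named genes were the rule genes, the 25 with the largest ratio, up to 10 called genes in each direction of a comparison, and the highest or called genes of each list. Some further genes (among them Hmox1, Lyve1, F13a1, Folr2, Ccr2, Vegfa, C3, Timd4 and Mertk) were named after their values were seen. The immune rule, the gene lists and the tests were chosen with earlier results of these data known.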

Additional observations from a re-analysis of the deposited data

Results flagged for a closer look

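The share of immune wells differed between sorts in opposite directions at 2 stages. At E12.5 both experiments had a higher share on MIP-GFP plates, by 9.46 (EP11) and 30.9 (EP18) percentage points, and at E15.5 both had a lower one, by -3.40 (EP10) and -0.249 (EP17). The mean differences of the 2 stages lay 22.0 percentage points apart, and this was not tested, with 2 experiments at each stage. The MIP-GFP libraries of EP11 and EP18 are titled E15.5, so the contrast rests on their stage entry.

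Single sums stood apart from the rest of their group for several genes. Many of these genes were named because they passed a test on the same sums. How often chance alone sets a sum apart is therefore not known, and the values here and in the next paragraph are a description. Among the 5 live sums the highest was 8.77 CPM for Ptprn2 and 70.4 CPM for Iapp, both EP16, 5331 CPM for Hdc, also EP16, and 5107 CPM for S100a8 and 308 CPM for Hp, both EP12. Among the 4 MIP-GFP sums the highest was 144 CPM for Isl1 (EP14) and 1.28 CPM for Hdc (EP11, 1 transcript), and the lowest was 149.8 CPM for Slc38a5 (EP18). Without the unclassed wells of EP14, its Isl1 value was 51.3 CPM.

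Over the 6 experiments, EP16 stood apart as the highest for mast cell genes Cma1 (13495 CPM), Hdc (5331 CPM), Prss34 (1476 CPM), Kit (807 CPM), Slc18a2 (461 CPM) and Fcer1a (103 CPM). The same experiment was apart for Cd163 (346 CPM), Fcgr2b (334 CPM), Ifitm3 (500.1 CPM), Bst2 (119 CPM) and Cbr2 (191 CPM), and for Dcn (132 CPM) and Sst (289.6 CPM), genes of mesenchymal and delta cells.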

How the results depend on the processing

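Alternatives on macrophage-like wells, MIP-GFP wells, hormone-rich wells left out of the denominator and single stages were chosen after seeing the data. The share difference between sorts kept its sign and stayed without significance in all alternatives but one: with the wells of the authors' smaller table it was -0.108 percentage points. Leaving out 1 experiment gave 3.72 to 9.62, the unpaired exact permutation test without a replicate block p = 0.0956, hormone-rich wells left out of the denominator 20.4 points, and experiments with conflicting titles left out 4.34 points (exact p = 0.500). The correlation of live share with day turned to -0.238 with the smaller table and to -0.0174 for macrophage-like wells, and ran from 0.0958 to 0.592 with 1 experiment left out.

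The count for stage, 161, was 404 with DESeq2, 369 without a filter on low counts, 0 for live wells only, 0 without plates of conflicting titles, 2 with stages from the titles, 2 for MIP-GFP wells, 2 for macrophage-like live wells and 39 for all macrophage-like wells (29 without EP10, 7 without EP16). It ran from 3 (without EP16) to 144 with 1 experiment left out, and was 21 without EP11, 52 without EP12, 85 without EP10 and 99 without EP18. At an unadjusted p under 0.05 the live wells gave 444 genes and the set without conflicting titles 791 in edgeR. The count for E15.5, 401, was 85 with DESeq2, 261 without TMM and 10 for macrophage-like wells; it could not be fitted for live wells or without EP10, EP11 or EP18, and ran from 374 to 412 otherwise. The count for the sorts, 31, was 57 with DESeq2, 329 without a filter, 88 with the replicate block, 3 for macrophage-like wells and 13 for these with the block (the block over all immune wells ended no call of a named gene), and ran from 0 (without EP12 or EP14, where 198 and 339 genes had an unadjusted p under 0.05 in edgeR) to 39, with 13 without EP11. The cause of these differences was not tested, except that fewer wells or experiments entered where some were left out.

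Slopes of genes that had not passed turned sign. Lyve1 went from 0.14 to -0.02 without EP11 (up to 0.71 with another experiment left out, EP16), -0.11 in live wells, -0.00 without plates of conflicting titles and -0.18 with stages from the titles, and F13a1 from 0.15 to -0.03 with the latter. Mrc1 went from -0.22 to 0.05 in MIP-GFP wells and to 0.01, 0.00 and 0.12 in macrophage-like wells (all experiments, without EP10 and without EP16), and its difference between sorts to 0.04 without a filter. S100a8 at E15.5 was 0.00 in macrophage-like wells. Of 650 values for named genes under an alternative, 446 kept direction and call. The sums of EP10 and EP16 held 17 and 26 immune wells.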

Other observations

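The transcript number of immune wells against the other wells of the same experiment and sort varied. The median transcript number of immune wells over that of the other wells was 0.737 in EP11 and 0.841 in EP12 MIP-GFP plates, 0.928 in EP14 and 1.15 in EP18, and on live plates 1.04 in EP18, 0.687 in EP12, 1.00 in EP14, 0.626 in EP10 and 0.427 in EP16. Set against spike-in transcripts, the EP16 ratio was 1.09, where the median spike-in count was 123 in immune and 312 in other wells, and in EP10 it was 0.629. EP18 had a median of 0 spike-in transcripts and gives no such value.

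Fetal growth genes were low in immune wells. The list of yolk sac and fetal growth genes, led by H19, Igf2bp3 and Igf2, summed to 1142 CPM ± 394 (SD, n = 6) in immune wells and 7839 CPM ± 1362 in all others, and Igf2 was found in 140 of 276 immune wells at 185 CPM ± 150.3 against 1236 CPM elsewhere.

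The endothelial list summed to 109 CPM ± 139 in immune wells (392 CPM in EP14) and 59.5 CPM ± 50.9 in the others, and the erythroid list to 172 CPM ± 314 and 857 CPM ± 674. Acinar genes were at 830.3 CPM at most in the immune wells of any experiment, against a mean of 2379 CPM ± 2210.4 in all other wells.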
